A study of Mus musculus with 12 samples.

Results

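The uroplakins are the membrane proteins that plate the surface of the urinary tract lining, and Psca encodes a small surface protein found beside them in bladder epithelium. The genes described here are the 5 uroplakin genes Upk1a, Upk1b, Upk2, Upk3a and Upk3b, together with Psca, 6 of the 20308 gene symbols in the expression table. They were taken by name, and all 6 passed the filter on low counts. Urogenital sinus epithelium of mouse embryos (strain C57BL/6J) was collected for RNA sequencing on embryonic day 15.5. In the 8 Dnmt1cKO libraries, Cre recombinase under the Shh driver had deleted Dnmt1, the gene of the enzyme that copies DNA methylation to new strands, in this epithelium, and the 4 Control libraries represent wildtype embryos. Each lysate pooled tissue of several embryos from a harvest, and trypsin had freed the epithelium from its stroma. The labels do not state which exons were deleted, whether Control embryos carried Cre or floxed alleles, or the sex of the embryos. They also do not say whether libraries with the same code in their descriptions came from separate pools, so p-values cover only the spread from library to library, which may be technical.

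The urogenital sinus gives rise to the bladder lining toward the head and to the urethra and prostate toward the tail. In mature bladder the umbrella cells of the surface carry rigid plaques of uroplakin protein, which help to make the lining impermeable and let it unfold as the bladder fills. Plaques are assembled from heterodimers: the tetraspanins Upk1a and Upk1b pair with the single-pass proteins Upk2 and Upk3a, and Upk3b can take the place of Upk3a beside Upk1b. Psca is a glycolipid-anchored protein of the Ly6 family. It was named for prostate stem cells but is made in bladder and stomach epithelium as well.

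Libraries differed in depth and in tissue make-up. The Dnmt1cKO libraries held 4007533 to 11970907 expected counts, and Controls 1 to 3 and the library labelled Control 4 held 7577706, 2915193, 1613514 and 543591. Levels are in CPM, counts divided by the library total after TMM scaling. Dnmt1 stood at 22.8 to 97.0 CPM in the Dnmt1cKO libraries and at 164, 114 and 237 CPM in Controls 1 to 3, but at 2.84 CPM, a single count, in the library labelled Control 4, against its label. The epithelial gene Epcam was present in every library, at 528 to 949 CPM in Dnmt1cKO and 515 to 808 CPM in Control, so epithelial RNA was found in all 12. Epcam alone cannot tell the labelled epithelium from another epithelium. In Control 3 some other epithelial genes were scarce, with Grhl2 at 0 and Krt19 at 11.3 CPM, while Krt8 stood at 856 CPM. Results are therefore given with and without the library labelled Control 4, and, where it matters, without Control 3 and Dnmt1cKO 2, which stood apart in uroplakin level.

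The 6 genes lie on 5 chromosomes. In the GRCm38 (mm10) assembly with GENCODE M21 annotation, Upk1a lies at chr7:30603092-30612847 (minus strand), Upk1b at chr16:38773184-38800328 (minus strand) and Upk2 at chr9:44452715-44454976 (minus strand). Upk3a lies at chr15:85017141-85022547, Upk3b at chr5:136038496-136046487 and Psca at chr15:74714839-74717069, all on the plus strand. None overlaps another annotated gene. Upk3b is followed on the same strand by its paralogue Upk3bl at chr5:136054492-136064326. Expected counts of Upk3b were whole numbers in all 12 libraries, while those of Upk1b were fractional in 4 Dnmt1cKO libraries, where the authors' software had divided reads between genes or transcripts.

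Sequence just before the annotated start was available for 3 of the 6 genes, and it is shown because the deleted enzyme acts on CpG dinucleotides, which differ in number between these windows. The sequences are RefSeq promoters of GRCm38.p6, read 5′ to 3′ on the strand of the gene, with each CpG in capitals: Upk1a at chr7:30612848-30612984 (minus strand), Upk3a at chr15:85016891-85017140 (plus strand) and Upk3b at chr5:136038246-136038495 (plus strand).
Upk1a: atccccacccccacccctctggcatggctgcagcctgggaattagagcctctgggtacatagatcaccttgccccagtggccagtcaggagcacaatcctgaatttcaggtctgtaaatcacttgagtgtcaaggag
Upk3a: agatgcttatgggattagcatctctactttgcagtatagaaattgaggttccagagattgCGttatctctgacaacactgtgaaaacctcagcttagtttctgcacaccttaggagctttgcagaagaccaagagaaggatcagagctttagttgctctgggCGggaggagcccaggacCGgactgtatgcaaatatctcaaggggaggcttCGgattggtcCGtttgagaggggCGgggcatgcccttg
Upk3b: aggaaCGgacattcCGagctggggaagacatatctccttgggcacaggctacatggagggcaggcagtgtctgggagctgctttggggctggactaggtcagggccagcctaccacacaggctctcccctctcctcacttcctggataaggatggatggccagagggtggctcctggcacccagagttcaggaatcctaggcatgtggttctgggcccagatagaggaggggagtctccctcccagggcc
Counts cover the 250 bases before each RefSeq start for all 3 genes; for Upk1a, the 137 of them that precede the annotated GENCODE gene are printed. In those 250 bases, Upk1a held 0 CpG, Upk3b held 2 and Upk3a held 6. The median over 32851 RefSeq promoters was 6, and 7.87% of them had none. Upk3a also held 2 GC boxes (GGGCGG on either strand, each overlapping a CpG), a motif found in 32.7% of promoters, and the windows of Upk1a and Upk3b held 0. DNA methylation was not measured in these libraries, so the windows are a description of sequence alone.

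Upk1a and Upk1b, the tetraspanins of the plaque, were detected in all 12 libraries, and their levels ranged more widely within each genotype than between the genotype medians. Upk1a ranged from 17.4 to 169 CPM in the Dnmt1cKO libraries with a median of 27.7 CPM, and stood at 95.8, 101 and 0.754 CPM in Controls 1 to 3 and at 537 CPM in the library labelled Control 4. Dnmt1cKO 2 (169 CPM) lay above Controls 1 and 2, Dnmt1cKO 4 (83.9 CPM) lay just below them, and the other 6 mutant libraries lay between 17.4 and 29.0 CPM. The groups overlapped, because Control 3 held a single count of Upk1a, a lower level than in any mutant library.

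Upk1b showed the same arrangement at a higher level. It ranged from 88.3 to 766 CPM in Dnmt1cKO with a median of 166 CPM, and stood at 264, 392.5 and 3.77 CPM in Controls 1 to 3 and at 1621 CPM in the library labelled Control 4. Dnmt1cKO 2 was again the highest mutant library and Dnmt1cKO 4 (263 CPM) the next. The other 6 mutant libraries lay between 88.3 and 207 CPM, below Controls 1 and 2 and far above Control 3.

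Upk2, the partner of Upk1a, was scarcer and less even. It ranged from 0.570 to 59.0 CPM in Dnmt1cKO with a median of 6.66 CPM, and stood at 17.6, 0 and 0.754 CPM in Controls 1 to 3 and at 367 CPM in the library labelled Control 4. Control 2 had no count, which allows up to 1.01 CPM at its depth (3 counts), and Control 3 and Dnmt1cKO 8 had 1 and 2 counts. Upk2 was thus near the detection limit in libraries of both genotypes, and these low libraries cannot be ranked.

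Upk3a, the partner of Upk1b, ranged from 12.2 to 165 CPM in Dnmt1cKO with a median of 23.6 CPM. In Controls 1 to 3 it stood at 27.8, 60.7 and 0 CPM, and in the library labelled Control 4 at 273 CPM. Its highest mutant libraries were Dnmt1cKO 2 and then Dnmt1cKO 8 (52.8 CPM). The groups overlapped, and Controls 1 and 2 both sat inside the range of the mutants.

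Upk3b, the alternative partner of Upk1b, was the lowest of the uroplakins per unit of transcript length and did not share the peak in the library labelled Control 4. It ranged from 1.77 to 44.7 CPM in Dnmt1cKO with a median of 4.46 CPM, against 12.4, 7.42 and 0 CPM in Controls 1 to 3 and 5.69 CPM in the library labelled Control 4. That last value rests on 2 counts, with an exact Poisson 95% interval of 0.689 to 20.5 CPM that covers counting error only. Its highest libraries of all 12 were Dnmt1cKO 2, where 13% of all genes had their highest level, and Dnmt1cKO 4 (24.7 CPM).

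Psca was the steadiest gene of the 6 in the mutants. It ranged from 11.4 to 43.3 CPM in Dnmt1cKO with a median of 33.2 CPM, and stood at 40.4, 84.3 and 4.52 CPM in Controls 1 to 3 and at 765 CPM in the library labelled Control 4. Its highest mutant library was Dnmt1cKO 6, at 1.30 times the mutant median, whereas the highest mutant library stood at 4.61 to 10.01 times the mutant median for the 5 uroplakins. Psca did not share the uroplakin peak in Dnmt1cKO 2, where it stood at 35.5 CPM.

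**Figure D1:**
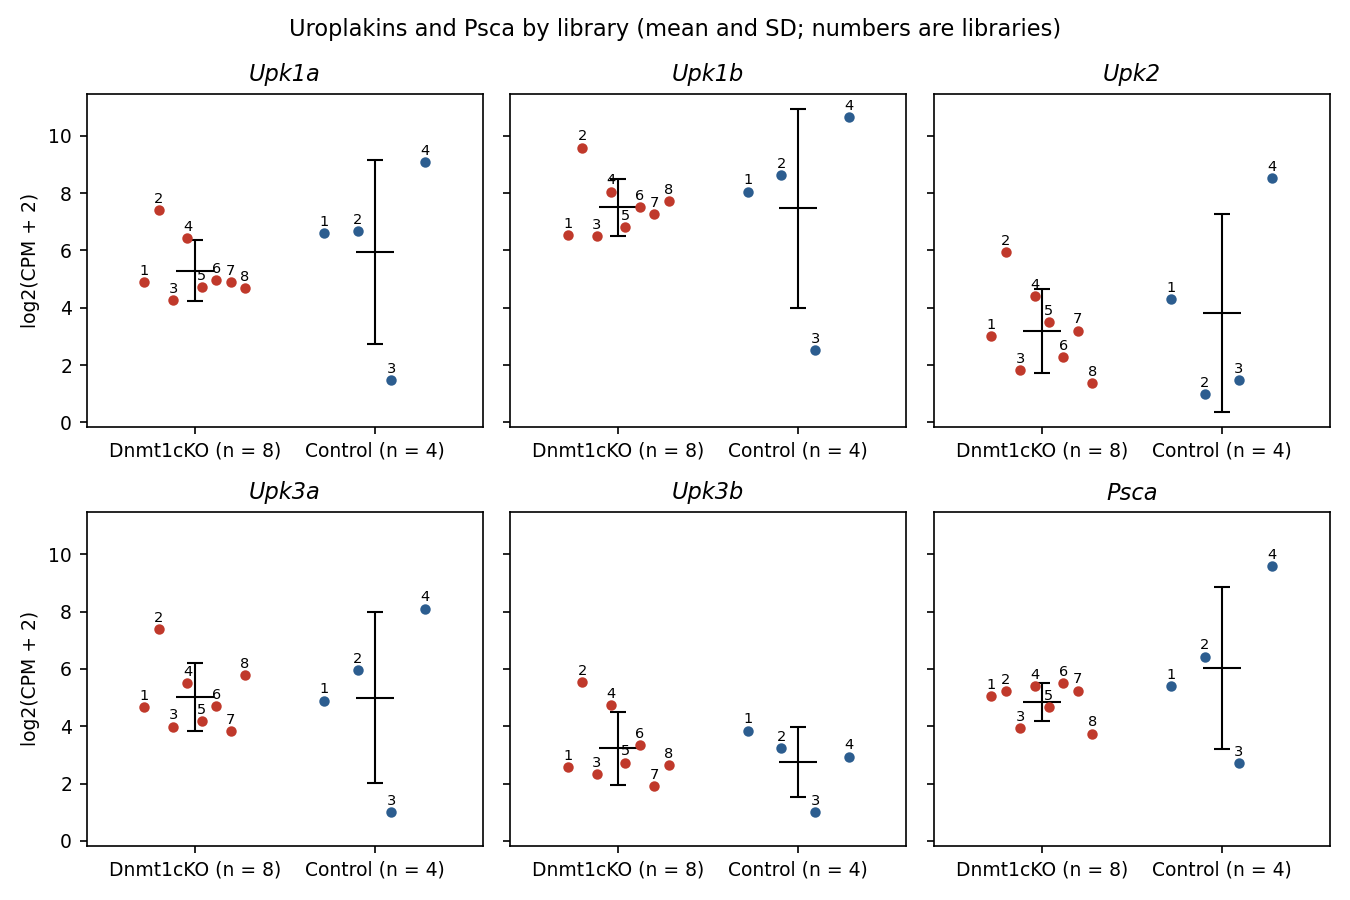
Level of each gene on a log2(CPM + 2) scale in the 8 Dnmt1cKO libraries (left, red) and the 4 Control libraries (right, blue); each point is a library with its number, and bars give the mean and SD. The library labelled Control 4 is the highest of the 12 for 5 genes, Control 3 is at or near the bottom for all 6, and Dnmt1cKO 2 is the highest mutant library for the 5 uroplakins.

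Psca fell in Dnmt1cKO when all 12 libraries were used, and it was the only one of the 6 genes to pass the test. It averaged 29.2 ± 12.04 CPM in Dnmt1cKO (SD, n = 8) and 224 ± 362 CPM in Control (SD, n = 4), a log2 fold change of -2.91 ± 0.72 (SE; edgeR quasi-likelihood test, Benjamini-Hochberg adjusted p = 0.0232). Among all genes tested, 2.59% were called, 1.55% lower and 1.03% higher. The split of higher and lower calls depended on scaling: 132 and 198 genes with TMM, 170 and 726 with RLE size factors, and 113 and 47 with library totals alone. That call was lost without the library labelled Control 4. There Psca averaged 29.2 ± 12.04 CPM in Dnmt1cKO (SD, n = 8) and 43.1 ± 39.9 CPM in Control (SD, n = 3), a log2 fold change of -0.50 ± 0.71 (SE; edgeR, adjusted p = 0.795, with a range of 0.000322 to 0.944 over the alternatives). The exact two-sided permutation test on mean log2(CPM + 2) gave p = 0.289 with all libraries (495 splits, smallest possible p 0.00202) and p = 0.994 without that library (165 splits, smallest possible p 0.00606).

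None of the 5 uroplakins passed the edgeR test. With all libraries the log2 fold change was -1.85 ± 0.81 for Upk1a, -1.29 ± 0.93 for Upk1b, -2.83 ± 1.33 for Upk2, -1.01 ± 0.89 for Upk3a and 0.86 ± 1.2 for Upk3b (SE; edgeR, Benjamini-Hochberg adjusted p from 0.225 to 0.759). At an unadjusted p under 0.05, 3 of the 6 genes passed (Upk1a, Upk2 and Psca), against 17.7% of all genes. DESeq2 called Upk1a as well, at an adjusted p of 0.0255, and limma-voom with quality weights called 0 of the 6. On simulated counts with less spread than these libraries, DESeq2 made more false calls than edgeR. Exact permutation of the uroplakins' mean log2 levels gave p from 0.543 to 0.99.

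Leaving out the library labelled Control 4 turned the sign of 3 uroplakins. The log2 fold change then stood at -0.35 ± 0.82 for Upk1a, 0.12 ± 0.94 for Upk1b, 1.09 ± 1.45 for Upk2, 0.60 ± 0.96 for Upk3a and 0.85 ± 1.29 for Upk3b (SE). The count called was 0 of 6, against 0.719% of 13352 genes, and 0 of the 6 had an unadjusted p under 0.05, against 14.6% of all genes. The median log2 fold change of the 6 genes was -1.57 with all libraries and 0.36 without that library, beside 0.22 and 0.19 for all genes tested. The sign of the median thus differed with and without this single library.

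Control 3 and Dnmt1cKO 2 pulled the other way. Without Control 3, Upk1a passed the test with a log2 fold change of -2.26 ± 0.62 (SE; edgeR, adjusted p = 0.0381, with a range of 0.0255 to 0.976 over the alternatives), and Psca stood at -3.32 ± 0.60 (SE; edgeR, adjusted p = 0.00199). Without Control 3 and the library labelled Control 4, 0 of the 6 genes passed (0.336% of 13990 genes did) and 0 had an unadjusted p under 0.05 (9.18% of genes did), and Psca stood at -1.02 ± 0.52 (SE; edgeR, adjusted p = 0.571). In a fit chosen after seeing the data, which left out Control 3, the library labelled Control 4 and Dnmt1cKO 2, all 6 log2 fold changes were below 0: -1.5 ± 0.46 for Upk1a, -1.01 ± 0.35 for Upk1b, -0.36 ± 1.38 for Upk2, -0.68 ± 0.57 for Upk3a, -0.41 ± 1.05 for Upk3b and -1.07 ± 0.50 for Psca (SE). The libraries were left out for their uroplakin levels, the lowest Control and the highest mutant among them, so that direction is no sign of stability. None of these 6 passed edgeR with Benjamini-Hochberg adjustment (adjusted p from 0.189 to 0.932), where 0.989% of 13957 genes did, and 2 of them, Upk1a and Upk1b, had an unadjusted p under 0.05, against 12.2% of genes.

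**Figure D2:**
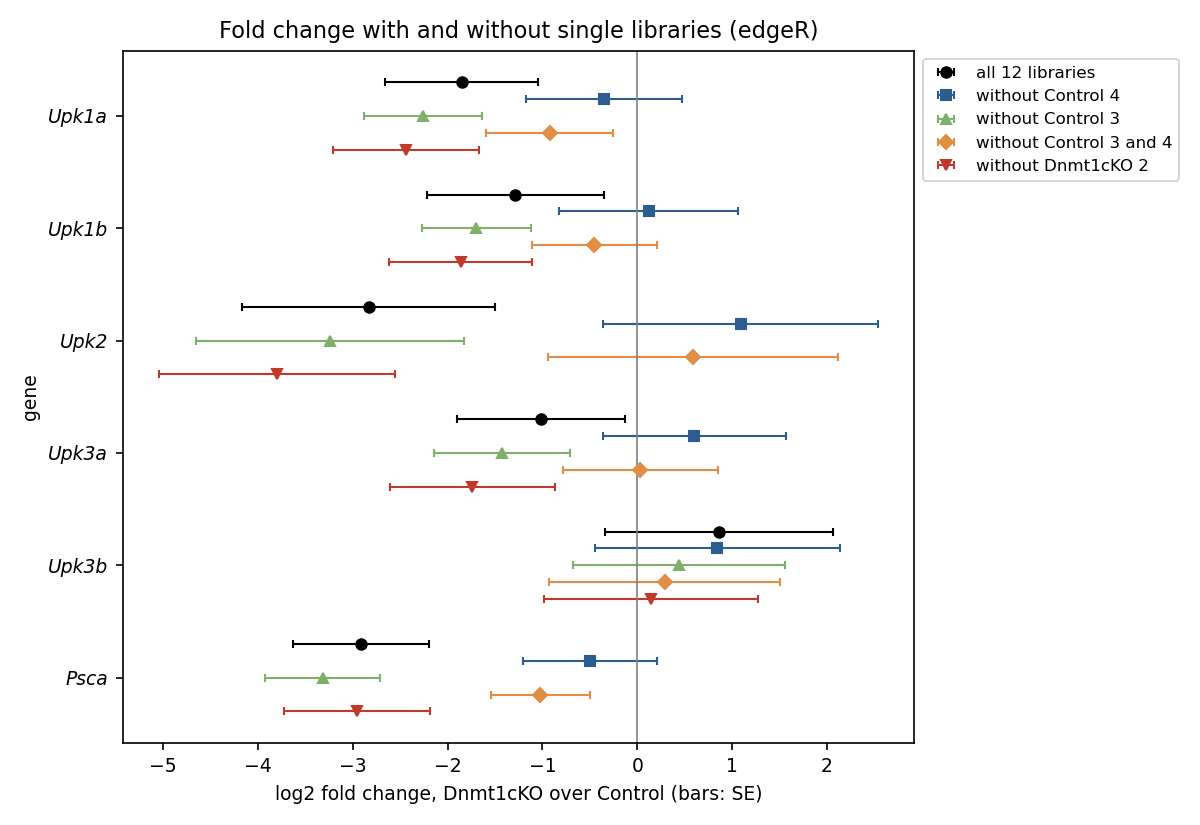
Log2 fold change of Dnmt1cKO over Control for each gene (points) with its SE (bars), fitted with edgeR on all 12 libraries and with single libraries or a pair left out. Psca stands at -2.91 with all libraries and -0.50 without Control 4, while Upk1b, Upk2 and Upk3a cross 0.

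The sample descriptions carry a code, a letter b with a number, whose meaning is not stated; codes 4 to 7 occur in both genotypes, and each holds 1 Control library. Within a code, the difference of mutant and Control levels on the log2(CPM + 2) scale had a different sign from code to code. In code 4, Dnmt1cKO 3 lay below Control 1 for all 6 genes, by -2.33 for Upk1a, -1.56 for Upk1b, -2.47 for Upk2, -0.91 for Upk3a, -1.53 for Upk3b and -1.48 for Psca. In code 6, Dnmt1cKO 5 lay above Control 3 for all 6, by 1.73 to 4.30. The other codes were mixed or again negative: 4 of the 6 genes were lower in the mutant in code 5, and all 6 in code 7, which holds the library labelled Control 4. Among all genes, 51.2%, 42.4%, 33.9% and 21.2% were lower in the mutant in codes 4 to 7. With the code as a block over codes 4 to 7, Psca had a log2 fold change of -2.28 ± 0.83 (SE; edgeR, adjusted p = 0.162) and 0 of the 6 genes passed, where 1.78% of 12415 genes did. At an unadjusted p under 0.05 in that fit, 4 of the 6 passed (Upk1a, Upk1b, Upk2 and Psca), all lower in the mutant, against 15.3% of genes.

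**Figure D3:**
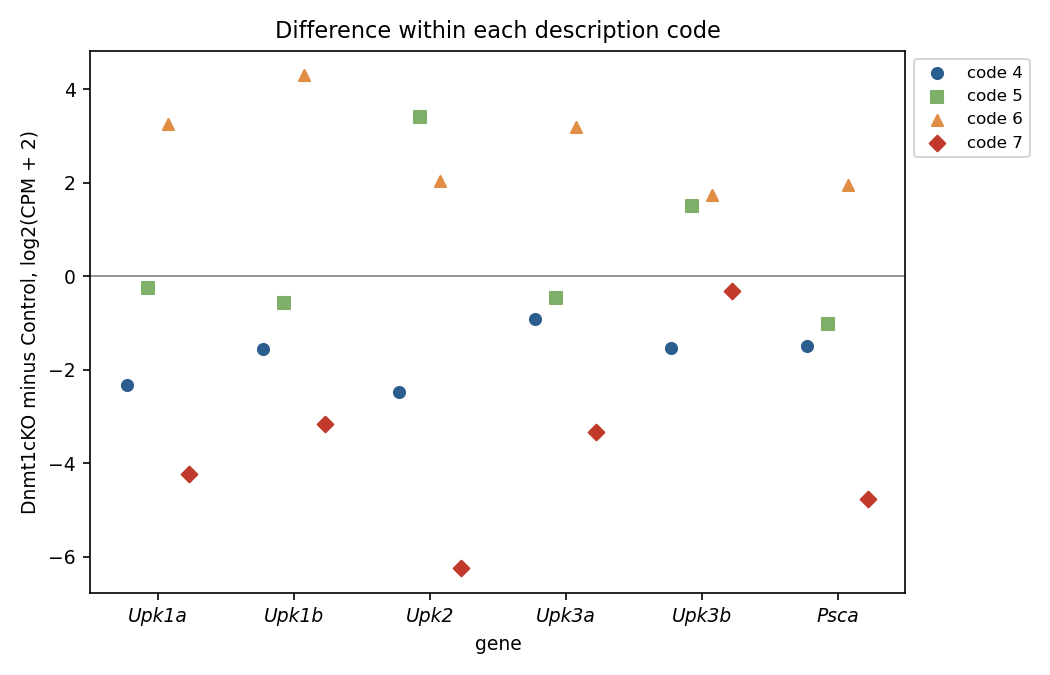
Difference of Dnmt1cKO and Control on the log2(CPM + 2) scale within each code shared by both genotypes (codes 4, 5 and 6 have a library of each genotype, and code 7 has 3 Dnmt1cKO libraries, averaged, and 1 Control). The points of code 6 lie above 0 and those of codes 4 and 7 below 0 for all 6 genes.

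Single libraries stood at the extremes. The library labelled Control 4 held the highest level of all 12 libraries for 5 of the 6 genes, the exception being Upk3b, and 14.6% of all genes peaked there. Against the mean of Controls 1 and 2 it was 5.47-fold higher for Upk1a, 4.94-fold for Upk1b, 6.17-fold for Upk3a and 12.3-fold for Psca. Upk2 stood at 367 CPM there, against 17.6 CPM in Control 1 and no count in Control 2. Control 3 lay below every Dnmt1cKO library for 5 of the 6 genes, as did 35.8% of all genes, with Upk2 the exception. Dnmt1cKO 2 was the highest mutant library for the 5 uroplakins, as it was for 21.7% of all genes.

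Some epithelial genes, but not all, were also extreme in these libraries. The summed level of 10 epithelial markers was 3922 to 7136 CPM in Dnmt1cKO, against 3506, 5499 and 3486 CPM in Controls 1 to 3 and 25131 CPM in the library labelled Control 4, where Cdh1 (E-cadherin) alone stood at 12780 CPM. Other genes of the list did not peak there: Cldn7, Grhl2 and Cldn4 stood at 5.69, 17.1 and 145 CPM in that library, below every mutant library and Controls 1 and 2. The ratio of Upk1b CPM to Cdh1 CPM was 0.0475 to 0.298 in Dnmt1cKO. It was 0.214, 0.145 and 0.00437 in Controls 1 to 3 and 0.127 in the library labelled Control 4, below Controls 1 and 2. Cdh1 was among the markers that peaked in that library, whereas Epcam, at 808 CPM there, was close to its 782.5 CPM in Control 3. The ratio to Cdh1 therefore does not stand for the ratio to every epithelial marker. Psca had, once the epithelial level was a term of the model, a log2 fold change of -0.78 ± 0.52 (SE; edgeR, adjusted p = 0.456). In Control 3 the ratio of Upk1b to Cdh1 was lower than in every other library. In whole-tissue RNA, fewer cells of a type and less RNA per cell cannot be told apart.

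Control 3 and Dnmt1cKO 2 also differed in markers of other tissues, and what part these have in the uroplakin levels was not tested. The summed level of 17 stromal markers was 364 to 7135 CPM in Dnmt1cKO, with the highest value in Dnmt1cKO 2, and 5485, 6260 and 11985 CPM in Controls 1 to 3 and 1425 CPM in the library labelled Control 4. That of 9 Wolffian and Mullerian duct markers was 0.224 to 185 CPM in Dnmt1cKO, the lowest again in Dnmt1cKO 2, against 55.3, 36.1 and 624 CPM in Controls 1 to 3 and 2.84 CPM in the library labelled Control 4. Control 3 thus held the most duct marker RNA and the least uroplakin RNA of the 12 libraries, and Dnmt1cKO 2 held the least duct marker RNA and the most uroplakin RNA of the mutants. The duct transcription factors Pax2 and Pax8 were at 0 in Control 3, where the duct genes Calb1, Emx2 and Wnt7a stood at 169, 95.7 and 70.9 CPM. The summed level of the 5 uroplakins was 124 to 1204 CPM in Dnmt1cKO, with a median of 223 CPM, against 417, 561 and 5.28 CPM in Controls 1 to 3 and 2804 CPM in the library labelled Control 4.

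**Figure D4:**
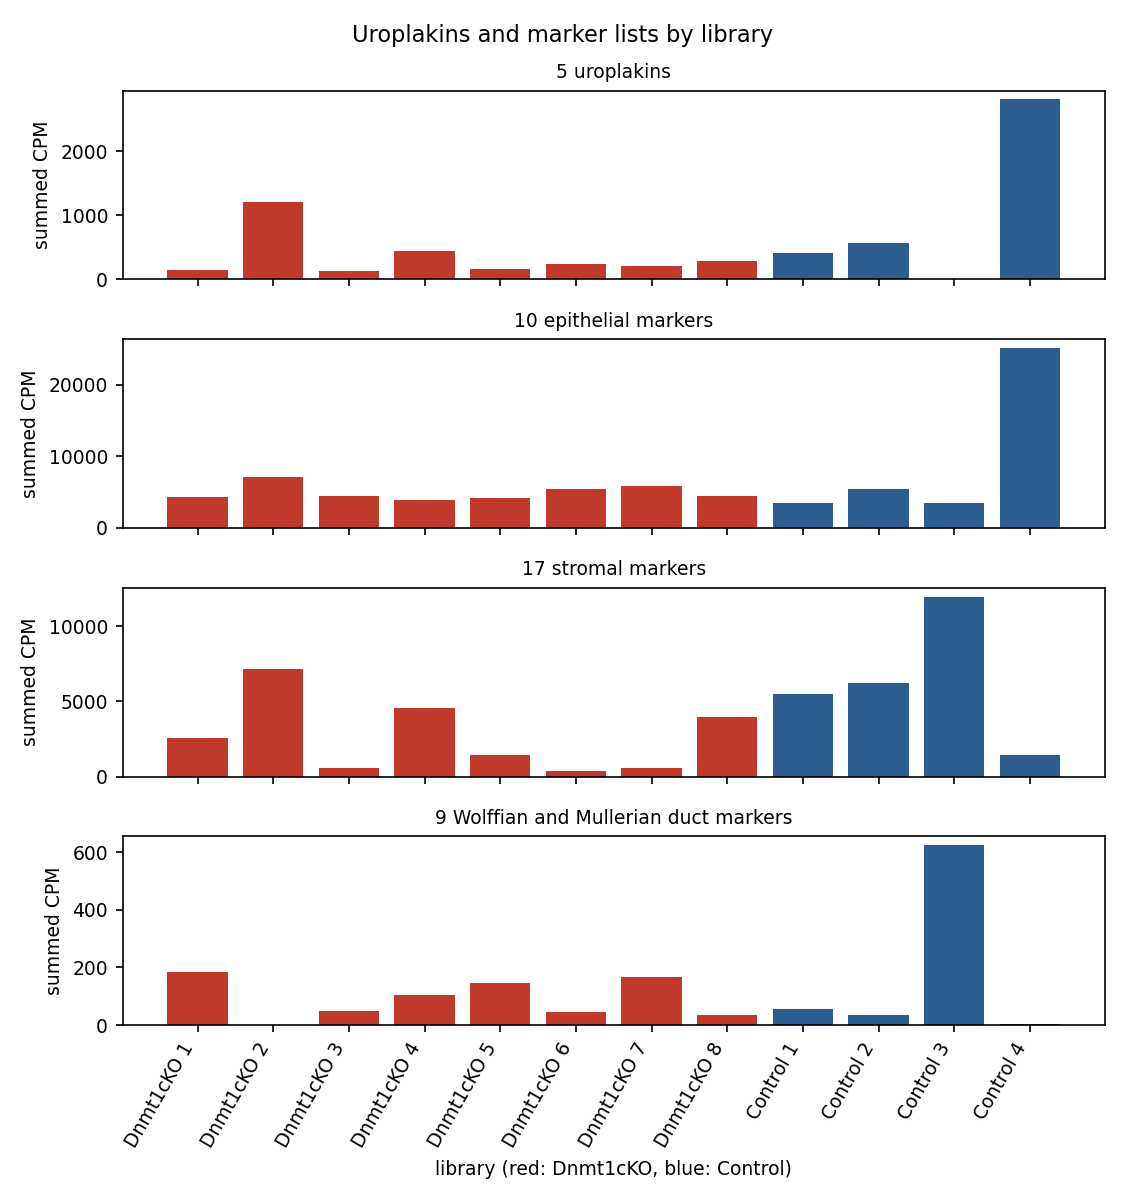
Summed CPM of the 5 uroplakins, 10 epithelial markers, 17 stromal markers and 9 Wolffian and Mullerian duct markers in each Dnmt1cKO (red, left) and Control (blue, right) library. The library labelled Control 4 has the most uroplakin and epithelial RNA, and Control 3 has the most stromal and duct marker RNA and 5.28 CPM of uroplakins.

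Upk3b is also a gene of mesothelium in the mouse, so mesothelial markers were set beside it. Of 9 such markers, 8 were in the table, and their summed level was 241 to 332 CPM in Dnmt1cKO, against 327, 244 and 253 CPM in Controls 1 to 3 and 25.6 CPM in the library labelled Control 4. Much of that sum was Aldh1a2, which is also made in other embryonic tissues, at 183 to 298 CPM in Dnmt1cKO and 22.7 to 255 CPM in Control. Single markers differed in how they stood beside Upk3b. Msln (mesothelin) stood at 63.3 CPM and 23.7 CPM in Dnmt1cKO 2 and Dnmt1cKO 4, the libraries with the most Upk3b, and at 0.754 CPM in Control 3, where Upk3b had no count. Msln was highest in Dnmt1cKO 2 among the mutants and lowest of all 12 libraries in Control 3, as Upk3b was. The 2 genes parted elsewhere. The highest Msln of all 12 libraries was in Control 2 (101 CPM), where Upk3b stood at 7.42 CPM. Dnmt1cKO 8 had more Msln (36.8 CPM) than Dnmt1cKO 4 but less Upk3b (4.28 CPM). The mesothelial factor Wt1 stood at 0.449 CPM and 22.1 CPM in Dnmt1cKO 2 and Dnmt1cKO 4, and at 115 CPM in Control 3. Lrrn4 was at 0 in every Control library and in 4 of the mutants. The part of mesothelial RNA in the level of Upk3b was not tested. Upk3bl, the paralogue beside Upk3b, ranged from 2.28 to 15.4 CPM in Dnmt1cKO, against 32.2, 8.09 and 0 CPM in Controls 1 to 3 and 2.84 CPM in the library labelled Control 4, with a log2 fold change of -0.10 ± 1.08 (SE; edgeR, adjusted p = 0.977). It did not peak in Dnmt1cKO 2 (11.9 CPM).

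Levels of different genes can be compared only per transcript length, and in CPM per kilobase Upk1b was the most abundant of the 6. Its median was 87.9 CPM per kilobase in Dnmt1cKO and 173 in Control. The median CPM per kilobase in Dnmt1cKO was 38.6 for Psca, 21.6 for Upk3a, 19.5 for Upk1a, 6.15 for Upk2 and 1.26 for Upk3b, and in Control it was 72.5 for Psca, 40.5 for Upk3a, 69.2 for Upk1a, 8.47 for Upk2 and 1.86 for Upk3b. Upk1b lay above Psca, and Psca above Upk3a, in 10 of 12 libraries, while Upk3a lay above Upk1a in 5 of 12, so that pair had no fixed order. Upk1a lay above Upk2 in 11 of 12 libraries and Upk2 above Upk3b in 10 of 12. The length used was that of the longest protein-coding GENCODE transcript, 3530 bases for Upk3b and 860 to 1894 bases for the others. The low place of Upk3b per kilobase rests in part on that choice.

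The plaque partners kept their proportions unevenly. Per kilobase, Upk1b was 2.24 to 7.24 times Upk3a in Dnmt1cKO (median 3.57) and 3.43 to 5.48 times in the 3 Control libraries with a count of Upk3a (median 3.73). Upk1a was 1.98 to 32.0 times Upk2 in Dnmt1cKO (median 3.40), against 0.762 to 4.15 times in the 3 Control libraries with a count of Upk2 (median 1.12). The extreme of 32.0 rests on 2 counts of Upk2 in Dnmt1cKO 8. Between the tetraspanins themselves, Upk1b was 2.36 to 6.48 times Upk1a in Dnmt1cKO and 2.07 to 3.75 times in Control.

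Over the 11 libraries other than the library labelled Control 4, the uroplakins ranked the libraries alike, apart from Upk2. These values describe likeness over libraries that share differences in depth and tissue make-up, with Control 3 low for all, and carry no test. Spearman's rho between pairs of the 5 uroplakins ran from 0.15 to 0.90 with a median of 0.79, and over the 8 Dnmt1cKO libraries from 0.21 to 0.81 with a median of 0.71. The closest pair was Upk1b and Upk3a (0.90), which are heterodimer partners, and 0.163% of genes were closer to Upk1b than Upk3a was. Upk1a and Upk2, the other partners, had 0.46, and 9.91% of genes were closer to Upk1a than Upk2 was. Psca was closer to Upk1a (0.81) than to Upk3a (0.45) over 11 libraries, and over the 8 Dnmt1cKO libraries its rho with Upk3a was 0.048.

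Among 12293 genes whose mean log2 CPM was 1 or more, the transcripts whose order over those 11 libraries was most like each gene included none of the other 5. For Upk1a they were Vgll3 (rho 0.98, Pearson's r 0.83), Adh1 (0.95 and 0.92) and Apoc1 (0.95 and 0.91). For Upk1b they were Dusp22 (0.99 and 0.94), Gsta4 (0.96 and 0.94) and Osbpl2 (0.95 and 0.97). For Upk2 they were Mutyh (0.99 and 0.97), Morn4 (0.98 and 0.80) and Lpin3 (0.96 and 0.95). Several of these are scarce: Mutyh ranged from 0 to 23.1 CPM in Dnmt1cKO, and Vgll3 from 0.285 to 21.8 CPM, so their ranks rest on few counts. For Upk3a they were Mgat3 (0.98 and 0.97), Zfp946 (0.97 and 0.91) and Wdhd1 (0.95 and 0.91), and for Upk3b they were Mtmr6 (0.94 and 0.76), Gsta4 and Ano1 (both 0.91). For Psca they were Bloc1s5 (0.98 and 0.93), Trmt112 (0.95 and 0.83) and Kctd1 (0.95 and 0.82). Gsta4, a glutathione transferase, is on the lists of both Upk1b and Upk3b, and it also shares the peak of Upk1b in the library labelled Control 4, at 973 CPM.

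Transcription factors of the urothelial programme did not shift together. Of 17 listed, all were tested, 1 was called lower (Gata3) and 0 higher, against 1.55% and 1.03% of all genes, with a median log2 fold change of -0.16 beside 0.22 for all genes. Gata3, which is active across bladder epithelium, stood at 67.8 to 168 CPM in Dnmt1cKO, against 171, 196 and 333 CPM in Controls 1 to 3 and 580 CPM in the library labelled Control 4, and every Control lay above every mutant library. Its log2 fold change was -1.55 ± 0.44 (SE; edgeR, adjusted p = 0.0459), and -1.02 without the library labelled Control 4 (edgeR, adjusted p = 0.163). Of all genes, 0.486% had every mutant library below every Control library. Rxra was so arranged too, by a narrow margin (at most 108.87 CPM in Dnmt1cKO and at least 108.9 CPM in Control). At an unadjusted p under 0.05 with all libraries (edgeR), 6 of the 17 factors passed, against 17.7% of all genes. They were Rxra, Grhl1, Gata3, Klf5 and Tbx3, lower in the mutant, and Irf1, higher.

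Pparg, a driver of umbrella cell differentiation, was highest in the library with the most uroplakin RNA among the mutants, though it did not follow the uroplakins throughout. It stood at 85.1 CPM in Dnmt1cKO 2 and 16.6 CPM in Dnmt1cKO 4, which had the highest summed uroplakin levels of the mutants, and at 0.365 to 3.80 CPM in the other 6, against 10.2, 0 and 1.51 CPM in Controls 1 to 3 and 8.53 CPM in the library labelled Control 4. Dnmt1cKO 8, the next mutant in summed uroplakin level (289 CPM), had 0.570 CPM of Pparg. The log2 fold change of Pparg was 1.55 ± 1.39 (SE; edgeR, adjusted p = 0.604). Klf5, an epithelial factor, peaked elsewhere: it stood at 32.8 to 86.8 CPM in Dnmt1cKO, against 43.7, 116 and 1.51 CPM in Controls 1 to 3 and 876 CPM in the library labelled Control 4, with a log2 fold change of -1.95 ± 0.75 (SE; edgeR, adjusted p = 0.173). Grhl3, which is needed for umbrella cells in the mouse, and Foxa1 stood at 23.7 to 106 CPM and 76.1 to 130 CPM in Dnmt1cKO, and were close to 0 in Control 3 (0.754 and 2.26 CPM). Grhl3 differed by 0.61 ± 0.77 and Foxa1 by 1.02 ± 0.64 on the log2 scale (SE; edgeR, adjusted p of 0.73 and 0.433).

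The list made for the superficial layer gave a single call, and that gene, Krt13, is one of intermediate cells. Of 17 listed, 15 were tested, 1 was called higher (Krt13) and 0 lower, against 1.03% and 1.55% of all genes, with a median log2 fold change of 0.21 beside 0.22 for all genes, the same with Krt20 at its lower bound. Krt13, a keratin of stratified and intermediate urothelial cells, ranged from 0 CPM in Dnmt1cKO 2 to 254 CPM in Dnmt1cKO 6, with 38.7 CPM or more in every mutant library but Dnmt1cKO 2, against 5.53, 3.71 and 1.51 CPM in Controls 1 to 3 and 2.84 CPM in the library labelled Control 4 (log2 fold change 4.76 ± 1.09, SE; edgeR, adjusted p = 0.0147). The mutant library with the most uroplakin RNA was thus the one with no Krt13. Krt20, the keratin of mature umbrella cells, ranged up to 9.49 CPM in 6 mutant libraries but had no count in Dnmt1cKO 2 and 4 or in any Control library (edgeR, adjusted p = 0.184). With all libraries, 5 of the 15 tested had an unadjusted p under 0.05 (edgeR), in both directions, against 17.7% of all genes. None of the genes in this list was called without the library labelled Control 4.

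Of 9 genes listed for the trafficking of uroplakins within the cell, 9 were tested with edgeR and 0 were called, against 2.59% of all genes. Their median log2 fold change was -0.18, beside 0.22 for all genes, and 1 of the 9 had an unadjusted p under 0.05, against 17.7% of all genes. Mal, which helps insert uroplakin vesicles into the membrane, stood highest among the mutants in Dnmt1cKO 2 at 424 CPM and then in Dnmt1cKO 4 at 185 CPM, and at 92.0, 74.9 and 7.54 CPM in Controls 1 to 3 and 446 CPM in the library labelled Control 4. Snx31, a sorting nexin that binds uroplakins, had the same order of mutants, with 134 CPM in Dnmt1cKO 2 and 47.6 CPM in Dnmt1cKO 4 and 12.7 to 18.1 CPM in the other 6, against 47.8, 53.6 and 2.26 CPM in Controls 1 to 3 and 71.1 CPM in the library labelled Control 4. Rab27b, which tethers the vesicles, reached 242 CPM in Dnmt1cKO 2 but only 8.53 CPM in the library labelled Control 4. Other genes of the list did not peak in Dnmt1cKO 2: Vamp8, at 8.53 CPM, was lower there than in any other mutant library, and Rab11a, Rab8a and Myo5b stood at 112, 140 and 64.4 CPM. The genes named from this list were chosen after their values were seen.

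Genes of the basal layer had mostly positive log2 fold changes. With all libraries, 6 of the 11 tested had an unadjusted p under 0.05 (edgeR), against 17.7% of all genes. Of 11 tested, 2 were called higher and 0 lower, against 1.03% and 1.55% of all genes, with a median log2 fold change of 2.05, beside 0.22 for all genes. Krt15, an abundant basal keratin, went the other way: it stood at 1050 to 4335 CPM in Dnmt1cKO, against 4896, 11030 and 267 CPM in Controls 1 to 3 and 11020 CPM in the library labelled Control 4 (log2 fold change -1.40 ± 0.64, SE; edgeR, adjusted p = 0.279). Krt6a stood at 90.9 to 469 CPM in Dnmt1cKO, against 57.9, 12.5 and 3.02 CPM in Controls 1 to 3 and 0 CPM in the library labelled Control 4, with a log2 fold change of 3.68 ± 0.78 (SE; edgeR, adjusted p = 0.00969). Cd44, a hyaluronan receptor of basal cells, stood at 7.99 to 65.8 CPM in Dnmt1cKO, against 2.83, 1.01, 0 and 0 CPM in the same 4 libraries, with a log2 fold change of 4.39 ± 1.21 (SE; edgeR, adjusted p = 0.0419). Neither passed without the library labelled Control 4 (edgeR, adjusted p of 0.0617 and 0.102), although every mutant library lay above every Control library for both genes, as it did for 2.59% of all genes. Krt5 and Trp63, which define basal cells, had log2 fold changes of -0.12 ± 0.42 and 0.11 ± 0.58 (SE; edgeR, adjusted p of 0.912 and 0.948). Trp63 stood at 103 to 293 CPM in Dnmt1cKO, against 230, 234 and 2.26 CPM in Controls 1 to 3 and 250 CPM in the library labelled Control 4, so Control 3 was the lowest library for this basal gene as well.

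**Figure D5:**
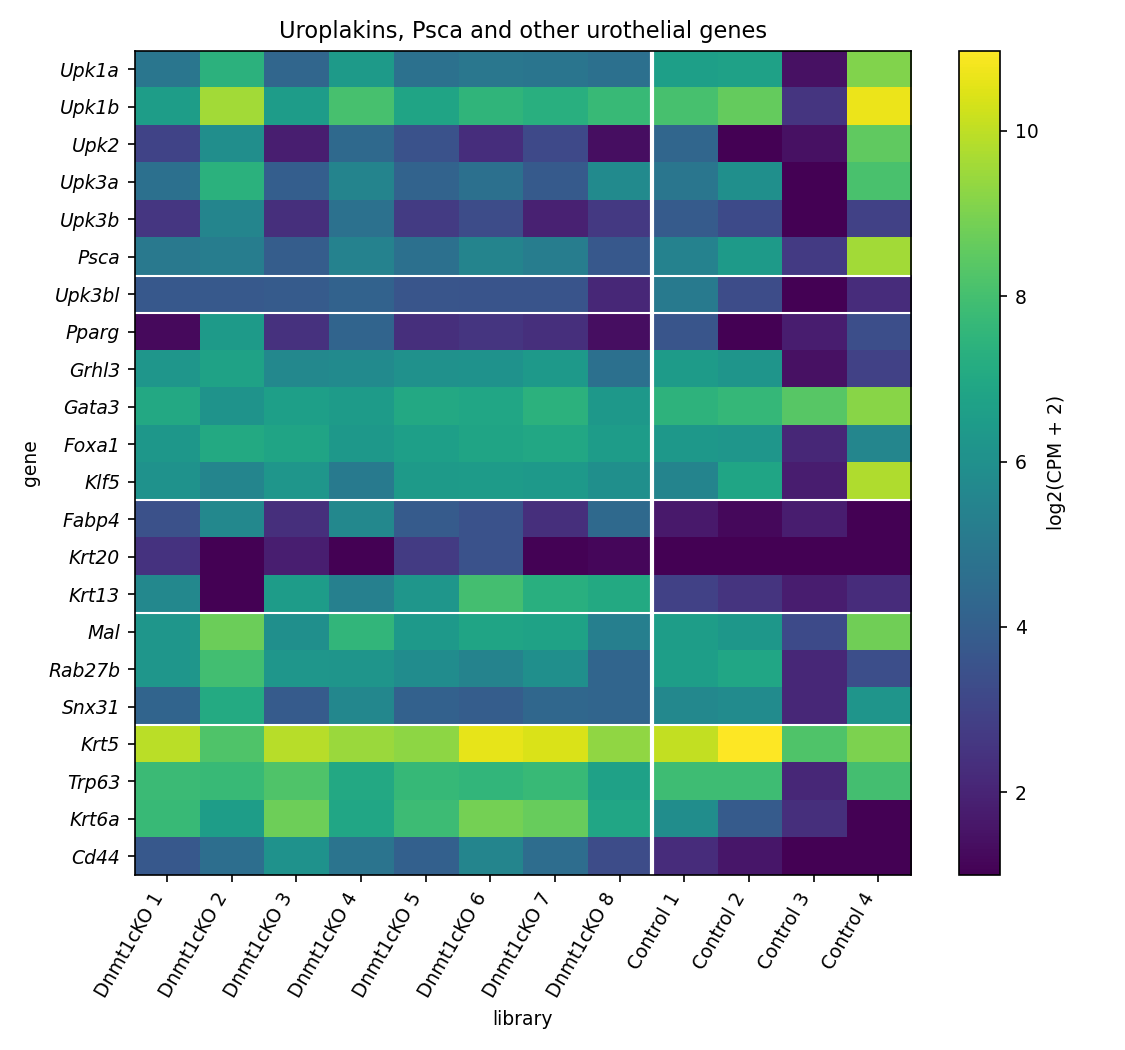
Level on a log2(CPM + 2) colour scale of the 6 genes and of other urothelial genes (rows) in the 8 Dnmt1cKO libraries (left of the white line) and the 4 Control libraries (right). Control 3 is dark for the uroplakins and for Grhl3, Foxa1 and Trp63, while Krt6a is brighter in every Dnmt1cKO library than in any Control library.

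The wider families of these proteins were set beside them. Of 29 other tetraspanin genes, the family of Upk1a and Upk1b, 24 were tested and 0 were called (1 had an unadjusted p under 0.05, against 17.7% of all genes), with a median log2 fold change of 0.064, beside 0.22 for all genes. Of 31 other genes of the Ly6 family of Psca, 30 were in the table, 16 were tested and 0 were called (6 had an unadjusted p under 0.05, against the same 17.7%), with a median log2 fold change of 1.05, the same with Ly6c1 and Tex101, which had no Control count, at their lower bounds. Psca was thus the only called gene among the Ly6 genes tested, and its negative log2 fold change stood against a positive median of the others. Without the library labelled Control 4, 0 genes of either family were called.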

How the data were processed

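Per the labels' protocols, polyadenylated RNA was fragmented, primed with random hexamers and amplified, with no molecular identifiers mentioned. The authors deposited RSEM expected counts per gene symbol; bcl2fastq 2.17.1.14, Bowtie 0.12.9, RSEM 1.2.3 and build mm10 come from the submitters' processing notes. Mapping parameters, annotation and strand use: not given in the sources used here. The last 8 columns, which hold words of gene descriptions, were not used.

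Expected counts were rounded and tested with edgeR 4.0.16 in R 4.3.3 (quasi-likelihood, TMM scaling, filterByExpr, minimum count 10, minimum total 15). Adjustment was by Benjamini-Hochberg over 12761 genes, with calls under 0.05. DESeq2 1.42.0, limma 3.58.1 (voom), other scalings and filters, covariates, blocks and left-out libraries were alternatives. Only the standard edgeR, DESeq2 and limma-voom fits on all 12 libraries were tested on simulated counts, where DESeq2 made more false calls than the others. The simulated counts had the same spread for every gene, less than in these libraries, and no outlying library. Those rates of false calls need not hold here. Log2 levels used a pseudocount of 2 CPM. Depth ran from 543591 to 11970907 counts; a count of 0 allows up to 3 counts, and intervals and floors cover counting error only. Libraries of a group differed beyond counting noise (lowest chi-square per degree of freedom 28.1).

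The genes, the lists set beside them and the tests were chosen with earlier results of these data known. Named genes were the 6 members, the called genes of each list, 10 genes fixed by name (Pparg, Grhl3, Gata3, Foxa1, Klf5, Krt5, Trp63, Krt20, Upk3bl and Dnmt1), the 3 genes most like each member and, from the marker lists, genes at 0. Outside this rule, and chosen after their values were seen, are Krt15, Rxra, Grhl1, Tbx3, Irf1, the trafficking genes and the single epithelial, mesothelial and duct markers. Same-numbered libraries did not deviate together, so numbers were not treated as pairs.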

Additional observations from a re-analysis of the deposited data

Results flagged for a closer look

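In 42 groups of libraries (21 genes in each genotype), 12 held a library whose gap to its nearest neighbour was large for the range of the group. Large was set by Dixon's criterion, which chance meets in about 1 in 20 groups of normally distributed values. Gaps were taken in CPM and not on a log scale, so that rate need not hold here. Dnmt1cKO 2 stood high among the mutants for Upk1a (169 CPM), Upk1b (766 CPM), Upk2 (59.0 CPM) and Upk3a (165 CPM), and also for Pparg (85.1 CPM), Mal (424 CPM) and Snx31 (134 CPM). The library labelled Control 4 stood high among the Controls for Upk2 (367 CPM), Psca (765 CPM) and Klf5 (876 CPM). Control 3 stood low for Trp63 (2.26 CPM), and Dnmt1cKO 8 stood low among the mutants for Upk3bl (2.28 CPM). The flagged libraries are the same few, so the 12 flags are not independent of each other.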

How the results depend on the processing

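The call of Psca held under 16 of 26 alternatives and no alternative reversed it. All of those 16 included the library labelled Control 4. Every alternative that left it out lost the call, among them its omission alone (-0.50). Psca stayed negative but was no longer called with library totals in place of TMM (-2.30), limma-voom with quality weights (-0.99), without Control 3 and the library labelled Control 4 (-1.02), under a block for the code (-2.28), with the epithelial level as a covariate (-0.78), in the added fit without Control 3, the library labelled Control 4 and Dnmt1cKO 2 (-1.07), and by exact permutation with all libraries (-1.19) or without the library labelled Control 4 (-0.0051). With the title number as a replicate block (numbers 1 to 4, correlations of same-numbered libraries -0.055 to 0.061, so the libraries share only a number, and not every library correlated best with its own), the log2 fold changes were -1.0 for Psca, 0.0021 for Upk1b and 0.66 for Upk3a, with 21 genes higher and 29 lower.

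The uroplakins kept their direction and side of the threshold under 23 (Upk1a), 22 (Upk1b), 22 (Upk2), 20 (Upk3a) and 24 (Upk3b) of 26 alternatives. DESeq2 returned no p-value for Upk2 (log2 fold change -5.04), and the 22 for Upk2 include that fit by its direction alone. Leaving out each library in turn gave log2 fold changes of -3.32 to -0.50 for Psca, -2.44 to -0.35 for Upk1a, -1.86 to 0.12 for Upk1b, -3.80 to 1.09 for Upk2, -1.74 to 0.60 for Upk3a and 0.14 to 1.45 for Upk3b, and 60 to 657 genes higher and 36 to 494 lower, against 132 and 198 with all libraries. Signs turned for Upk2 (0.65) and Upk3b (-0.76) with limma-voom, for Upk2 (0.59) and Upk3a (0.034) without Control 3 and the library labelled Control 4, for Upk3a (0.35) with the epithelial covariate and for Upk3b (-0.41) in the added fit. By exact permutation they turned for Upk1b (0.030) and Upk3a (0.012) with all libraries, and for Upk1a (0.37), Upk1b (1.10), Upk2 (0.94) and Upk3a (1.05) without the library labelled Control 4. Upk1a passed the test with DESeq2 (-2.86). The cause of these changes was not tested.

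Genes called lower numbered 726 with RLE size factors, 47 with library totals, 84 with the code block, 62 with the epithelial covariate and 13 in the added fit. DESeq2 called 487 higher and 1030 lower, limma-voom 8 and 31, and the fit without Control 3 and the library labelled Control 4 called 45 and 2. On simulated counts with less spread than these libraries, DESeq2 made more false calls than the other tools. The median log2 fold change of all genes was 0.22 with TMM, 0.072 with RLE size factors and 0.38 with library totals, and no uroplakin or Psca changed sign between those scalings. Some levels rest on 0 to 2 counts: Upk1a, Upk2, Upk3a and Upk3b in Control 3, Upk2 in Control 2 and Dnmt1cKO 8, and Upk3b in the library labelled Control 4. Differences that depend on their exact level could not be resolved at this depth.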
